A study of Mus musculus with 29 samples.

Results

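Tuft cells are rare chemosensory cells of the intestinal epithelium, and 9 genes by which they are recognized in mice were followed here in colon RNA from 6 models of colitis and their controls. The genes were Pou2f3, Gfi1b, Il25, Trpm5, Rgs13, Sh2d6, Dclk1, Avil and Alox5ap. They were chosen by name as textbook tuft cell genes, and their rows were taken from the count table by Ensembl identifier. All 9 were among the 54532 genes of the table. A test was made for 7 of them, because Il25 and Gfi1b fell under the filter of a mean count of at least 3 per library, which 18616 genes passed.

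Tuft cells sense luminal metabolites with a signalling chain like that of taste cells. A G protein and a phospholipase C release calcium, and calcium opens the cation channel TRPM5. The cells then secrete IL-25 and cysteinyl leukotrienes, which act on group 2 innate lymphoid cells, and IL-13 from those cells acts back on the epithelial progenitors so that more tuft and goblet cells form. POU2F3 is the transcription factor without which the lineage is missing. Several of these genes have other sources in a colon segment. Dclk1 and Avil are also made by neurons, Rgs13 by germinal centre B cells and mast cells, Gfi1b by megakaryocytes and erythroid cells, and Alox5ap by neutrophils and macrophages.

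Colon segments of 29 mice were sequenced as poly(A) RNA, 1 library for each mouse, in 9 groups. Untreated wild-type mice labelled BALB/c (n = 3) were the controls of the DSS, DNBS and anti-IL-10 groups, which are also labelled BALB/c. The DSS mice were given 3% dextran sulphate sodium (DSS) in drinking water for 5 days and culled at day 10 (n = 3). The DNBS mice were given 3 mg of dinitrobenzene sulphonic acid (DNBS) rectally (n = 3). The anti-IL-10 mice were given an IL-10 blocking antibody, listed in the protocol as 750 µg against the IL-10 receptor, and culled by week 4 (n = 4). Untreated mice labelled C57BL/6 Rag1-/- (n = 3) were the controls of mice given 500000 naive CD4+ T cells and culled at week 6 to 8 (TCT, n = 3), whose genotype label is also C57BL/6 Rag1-/- while the protocol calls the recipients Rag2-/-, and of mice labelled C57BL/6 Rag1-/- given 50 µg of agonistic anti-CD40 and culled at day 7 (n = 3). Untreated mice labelled BALB/c Rag2-/- (n = 3) were the controls of untreated mice labelled BALB/c Tbx21-/- x Rag2-/-, a genotype known for colitis without treatment (TRUC, n = 4). Mice without Rag1 or Rag2 make no T or B cells of their own. Ages, cages and litters are not stated in the labels, so the p-values measure the spread between these mice only. The identifiers of TRUC mice 4 and 5 follow another pattern than those of the other TRUC mice, and what they mark is not stated.

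Total counts per library ran from 10725564 to 14977094, so that a count of 0 allowed up to 3 counts, or 0.179 to 0.314 CPM (the usual count share of a library, on edgeR's TMM scale), by counting error alone. Markers of colon epithelium were high in every library, with summed CPM of the 10 epithelial genes between 7510 and 21700, and the 5 exocrine pancreas genes summed to at most 4.36. Some libraries went against their labels. H2-Ea-ps, a transcript of the major histocompatibility locus that BALB/c mice make and C57BL/6 mice lack, had at most 1 count in each wild-type, DSS, DNBS, anti-IL-10 and TCT library, but 787 to 1011 counts in the controls labelled Rag1-/-, 2262 to 2512 in the anti-CD40 libraries, 784 to 1462 in the Rag2 controls and 2981 to 3956 in the TRUC libraries. Rag1 had 20 to 33 counts in the TCT libraries and 0 to 4 in the controls labelled Rag1-/-, while Rag2 had 6 to 20 counts in those controls, 48 to 99 in the anti-CD40 libraries, 57 to 94 in the TRUC libraries, 15 to 25 in the Rag2 controls, 0 in the TCT libraries and 0 to 1 in the wild-type, DSS, DNBS and anti-IL-10 libraries. Tbx21 had 26 to 52 counts in the TRUC libraries (mean 3.1 CPM, SD 1.12) and 1 to 7 in the Rag2 controls (mean 0.231 CPM, SD 0.258). Both genes named in the TRUC label thus had more counts there than in its controls. Every group name, the wild-type, DSS, DNBS and anti-IL-10 groups included, stands throughout for the libraries so labelled. Which exons the counts came from is not known, so a transcript left by a partial deletion cannot be told apart from an intact one. Whatever difference of strain these transcripts mark cannot be told apart from treatment when TCT is set against the labelled Rag1 controls, or from genotype when the Rag2 controls are set against the wild-type mice. TCT is also given against the wild-type mice and anti-CD40 against the Rag2 controls. By label these pairs differ in strain and genotype as well. The wild-type mice are labelled BALB/c and the TCT mice C57BL/6 Rag1-/-. The Rag2 controls are labelled BALB/c Rag2-/- and the anti-CD40 mice C57BL/6 Rag1-/-. Such differences cannot be told apart from treatment there either.

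In the healthy colon the 9 genes were weakly expressed. Per kilobase of exon, the mean level in the 3 wild-type libraries was 1.15 CPM per kb for Avil (SD 0.211), 1.05 for Sh2d6 (SD 0.132), 0.851 for Dclk1 (SD 0.0417), 0.851 for Rgs13 (SD 0.416), 0.845 for Alox5ap (SD 0.249) and 0.49 for Trpm5 (SD 0.123). Pou2f3 followed at 0.185 CPM per kb (SD 0.0754), Gfi1b at 0.0997 (SD 0.0728) and Il25 at 0.0943 (SD 0.043). Avil and Sh2d6 did not differ beyond their SDs, nor did Dclk1, Rgs13 and Alox5ap among themselves.

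Across the models the members did not move as a block. Dclk1, Trpm5, Sh2d6 and Rgs13 fell in the anti-CD40 mice, and the first 3 of them in the anti-IL-10 mice. Avil and Alox5ap rose in the TRUC, DSS and TCT mice, Dclk1 also rose in DSS, and Pou2f3 fell in TRUC. No member passed the test in DNBS. A gene was called where its p, from the quasi-likelihood test of edgeR and adjusted by Benjamini-Hochberg over the 18616 genes, was under 0.05, and the members' shares stand beside those of all genes in what follows. Fewer cells of a type and less RNA per cell cannot be told apart in such bulk tissue.

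**Figure D1:**
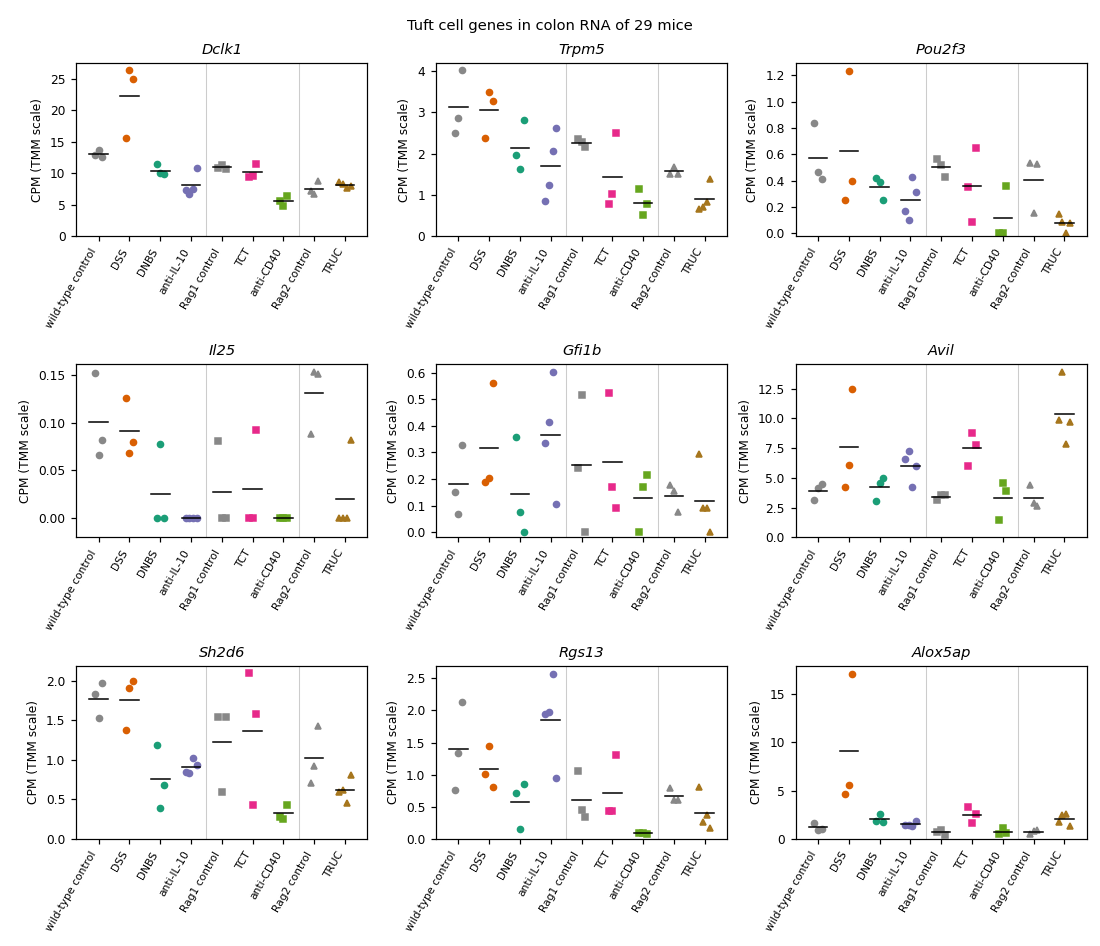
CPM on the TMM scale of each of the 9 tuft cell genes (y axes, linear) in the 29 colon libraries, by group (x axes). Points are mice and bars are group means, and vertical lines separate the 3 sets of a control and its models. Dclk1 is highest in the DSS mice at 15.5 to 26.4 CPM, and Rgs13 is at most 0.0939 CPM in the anti-CD40 mice.

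In TRUC against Rag2 controls, 1 of 7 tested members was lower, beside 23.4% of all genes, and 2 were higher, beside 22.4%. The members' median log2 fold change was -0.69, where that of all genes was -0.03. In DSS against wild-type controls 3 of 7 were higher, beside 17.7% of genes, and 0 were lower, beside 16.3%. The median was 0.14, against 0.02 for all genes. In DNBS 0 of 7 were higher, beside 3.95% of genes, and 0 were lower, beside 2.21%, with a median of -0.55 against 0.01. At an unadjusted p under 0.05 edgeR placed 2 members lower in DNBS and 0 higher, and DESeq2 called 0 in either direction.

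In anti-IL-10 against wild-type controls 3 of 7 were lower, beside 26.1% of genes, and 0 were higher, beside 27.2%, with a median of -0.69 against -0.01. In TCT against the labelled Rag1 controls 2 of 7 were higher, beside 16.1% of genes, and 0 were lower, beside 14%, with a median of 0.16 against 0. In anti-CD40 against the same controls 4 of 7 were lower, beside 10.7% of genes, and 0 were higher, beside 10.9%, with a median of -1.48 against -0.03. Among untreated mice, 1 of 7 was lower in the Rag2 controls than in the wild-type controls, beside 4.86% of genes, and 0 were higher, beside 3.25%. The median there was -0.78 against 0.01. In the directions in which edgeR called 0 members in DSS, anti-IL-10, TCT, anti-CD40 and the untreated mice, 0 had an unadjusted p under 0.05 and DESeq2 called 0. The DSS, DNBS and anti-IL-10 groups share 1 set of controls, and so do TCT and anti-CD40, so these comparisons are not independent of each other. The widest gap to the share of all genes was that of the 4 of 7 lower in anti-CD40. DESeq2 on each pair of groups called 0 members lower in TRUC, 1 in anti-IL-10, 2 in anti-CD40 and 2 in the Rag2 controls, and 2 members higher in each of TRUC, DSS and TCT.

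**Figure D2:**
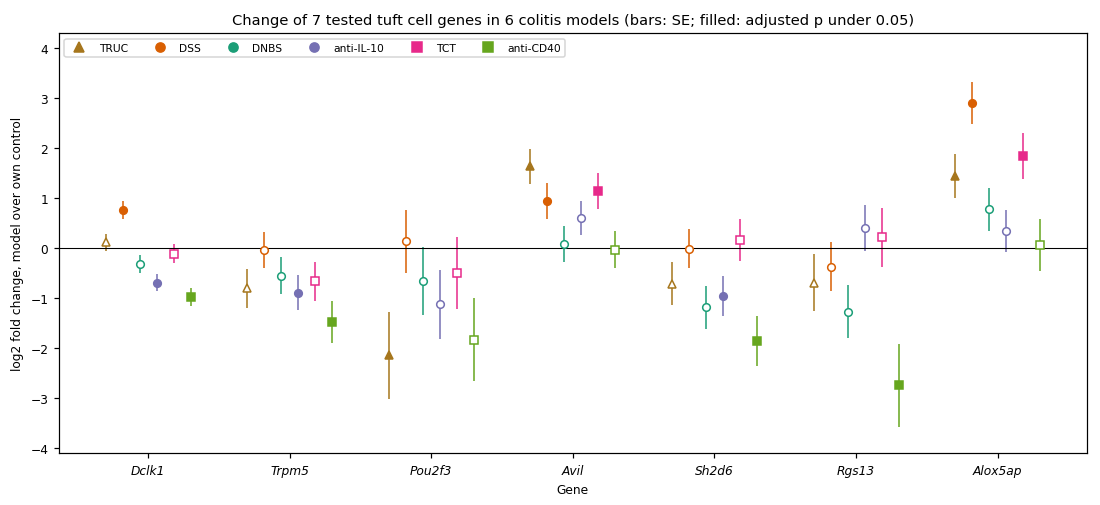
Log2 fold change of each colitis model over its own control (y axis) for the 7 tested members (x axis), from edgeR. Bars are the SE, filled symbols have an adjusted p under 0.05 and open symbols do not. Avil and Alox5ap lie above 0 where they are filled, and the filled symbols of Trpm5, Pou2f3, Sh2d6 and Rgs13 lie below it, while Dclk1 has filled symbols on both sides.

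A difference between the 6 models was found for 5 of 7 tested members by a quasi-likelihood F test that the 6 changes are equal, beside 60.5% of all genes. The adjusted p was 1.2e-06 for Dclk1, 1.79e-05 for Alox5ap, 0.00625 for Sh2d6, 0.00683 for Rgs13 and 0.00974 for Avil. It was 0.12 for Trpm5 and 0.209 for Pou2f3, so that for these the models were not shown to differ.

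Pou2f3 (ENSMUSG00000032015, chr9:43123939-43210369, minus strand, GRCm38), the lineage factor, was found at few counts everywhere. The TRUC libraries held 2, 1, 0 and 1 counts, or 0.147, 0.089, 0 and 0.0814 CPM, where the Rag2 controls held 6, 2 and 7 counts, or 0.531, 0.153 and 0.529 CPM. The groups did not overlap, but the highest TRUC mouse lay beside the lowest control. The log2 fold change was -2.14 (SE 0.867, adjusted p 0.0462 by edgeR), and the ratio of summed counts was 0.209 with an exact 95% interval of 0.0504 to 0.655, for counting error only. The call is at the edge of the threshold: it was lost in 15 of 29 fits that each left out 1 library, with adjusted p up to 0.142. Those fits left out TRUC mouse 3, 4 or 5, Rag2 control 1 or 4, wild-type control 2 or 4, any of the controls labelled Rag1-/-, anti-IL-10 mouse 1 or 4, TCT mouse 1, or DNBS mouse 11 or 14.

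In the anti-CD40 mice Pou2f3 had 0, 0 and 5 counts, where the controls labelled Rag1-/- had 7, 7 and 5. All 3 anti-CD40 mice were lower than every control in CPM, with a log2 fold change of -1.83 (SE 0.835, adjusted p 0.118 by edgeR), which did not pass the test. Without anti-CD40 mouse 8, the one with 5 counts, the gene passed at an adjusted p of 0.00888. Elsewhere the change of Pou2f3 in log2 was 0.14 in DSS (SE 0.628), -0.65 in DNBS (SE 0.679), -1.12 in anti-IL-10 (SE 0.691) and -0.49 in TCT (SE 0.721), and in these 4 comparisons the groups overlapped.

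Gfi1b (ENSMUSG00000026815, chr2:28609450-28621982, minus strand), a repressor of transcription in tuft cells and in megakaryocytes, was not tested. It had 0 to 7 counts per library and 78 over all 29, with 0 counts in 4 of them. The group means ran from 0.119 CPM in TRUC (SD 0.125) to 0.365 CPM in anti-IL-10 (SD 0.205), and each group overlapped the next in that order. In a fit with no filter on low counts it passed in no comparison, the lowest adjusted p being 0.445 by edgeR, in anti-IL-10 against the wild-type controls. TRUC and anti-IL-10 were not compared with each other, and at these counts a difference could be missed.

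Il25 (ENSMUSG00000040770, chr14:54932695-54935837, plus strand), the cytokine through which tuft cells call on innate lymphoid cells, was at or under the floor in every library. It had 17 counts in all, at most 2 in any library and 0 in 16 of 29. The wild-type controls held 2, 1 and 1 counts, and the Rag2 controls 1, 2 and 2. The anti-IL-10 and anti-CD40 mice held 0 in every library, and TRUC 0, 0, 0 and 1. DSS mice held 2, 1 and 1, like their controls. A level of 0 here allows up to 3 counts, so no fold change is given.

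Trpm5 (ENSMUSG00000009246, chr7:143069153-143094642, minus strand), the calcium-gated cation channel of the chain, was lower in the mean in each of the 6 models than in its controls, and passed the test in 2 of them. In anti-CD40 the mice had 1.13, 0.514 and 0.789 CPM, and the controls labelled Rag1-/- 2.35, 2.28 and 2.15 CPM. The groups did not overlap, and the log2 fold change was -1.48 (SE 0.416, adjusted p 0.0138 by edgeR), a level of 0.359 times that of the controls. Against the Rag2 controls, at 1.51, 1.68 and 1.51 CPM, the change was -0.95 (adjusted p 0.104), and without anti-CD40 mouse 7, the lowest, the change from the labelled controls was -1.25 (adjusted p 0.0905), neither of which passed.

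In anti-IL-10 the 4 mice had 0.843, 1.25, 2.06 and 2.61 CPM of Trpm5, and the wild-type controls 2.51, 2.86 and 4.02 CPM. The highest treated mouse overlapped the lowest control, and the log2 fold change was -0.89 (SE 0.353, adjusted p 0.0368 by edgeR). The call was lost without anti-IL-10 mouse 1 (-0.66, adjusted p 0.125) or 2 (-0.78, adjusted p 0.0926) and without wild-type control 2 (-0.96, adjusted p 0.0528) or 4 (-0.68, adjusted p 0.162). The changes in TRUC (-0.80, SE 0.389, adjusted p 0.0962), DNBS (-0.55, SE 0.368) and TCT (-0.66, SE 0.394) did not pass. Without TRUC mouse 5, which had 1.38 CPM where the other 3 had 0.664 to 0.825, the TRUC change was -1.09 at an adjusted p of 0.0392, and without TCT mouse 5, at 2.5 CPM, that of TCT was -1.31 at 0.026. The DSS mice, at 2.39, 3.49 and 3.28 CPM, lay among their controls.

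Rgs13 (ENSMUSG00000051079, chr1:144138654-144177372, minus strand) encodes a regulator that shortens G protein signals. Its counts in anti-CD40 were 1, 1 and 1, or 0.0939, 0.0857 and 0.0718 CPM, beside 13, 6 and 4 counts, or 1.05, 0.442 and 0.344 CPM, in the controls labelled Rag1-/-. Every anti-CD40 mouse was below every control, and the ratio of summed counts was 0.135 with an exact 95% interval of 0.026 to 0.447. That interval is for counting error only and leaves out the spread between mice. The log2 fold change was -2.75 (SE 0.824, adjusted p 0.0197 by edgeR). Set against the Rag2 controls, at 0.797, 0.612 and 0.604 CPM, it was -2.87 (adjusted p 0.0131). The call was lost without any 1 of the 3 anti-CD40 mice (adjusted p 0.0503 without mouse 6, 0.0738 without 7 and 0.0512 without 8) or without control 2 of the Rag1 label (-2.13, adjusted p 0.105). In anti-IL-10 the level was 1.94, 1.97, 2.57 and 0.941 CPM, overlapping the wild-type controls at 0.762, 1.33 and 2.13 CPM, with a change of 0.41 in log2 (SE 0.459) that did not pass. Of the 6 B cell genes, 0 were called in anti-CD40, where 10.9% of all genes were higher and 10.7% lower. The B cell genes summed to 8.61 to 10.3 CPM there, beside 7.78 to 10.9 in the controls labelled Rag1-/-. Among untreated mice 4 of the 6 were lower in the Rag2 controls, as were 4.86% of all genes. Their sum was 7.17 to 7.81 CPM in the Rag2 controls, beside 72.5 to 115 in the wild-type mice. Rgs13 was 0.671 CPM in the Rag2 controls beside 1.41 (-1.06, SE 0.533, adjusted p 0.273 by edgeR). Of the 6 mast cell genes 2 rose and 0 fell in anti-CD40, where 10.9% and 10.7% of all genes did. The mast cell sum was 25.8 to 55 CPM beside 40.4 to 61.9. That sum was mostly Kit, at a mean of 32.6 CPM over all libraries, with Mcpt1 next at 2.32. The list's median log2 fold change in anti-CD40 was 1.6, where that of all genes was -0.03, so the sum does not stand for the other genes. The part of these cells in the change of Rgs13 was not tested.

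Sh2d6 (ENSMUSG00000052631, chr6:72513641-72521707, minus strand), an SH2 domain adaptor of tuft cells, fell in the same 2 models as Trpm5. The anti-CD40 mice had 0.282, 0.257 and 0.431 CPM and the controls labelled Rag1-/- 1.54, 0.589 and 1.55 CPM. The groups did not overlap, and the log2 fold change was -1.86 (SE 0.505, adjusted p 0.0112 by edgeR). Against the Rag2 controls it was -1.62 (adjusted p 0.0242), and without anti-CD40 mouse 7 it was -1.72 at an adjusted p of 0.0625. In anti-IL-10 the mice had 0.843, 0.831, 1.03 and 0.941 CPM, all below the wild-type controls at 1.83, 1.53 and 1.97 CPM.

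That change of Sh2d6 in anti-IL-10 was -0.95 (SE 0.398) with an adjusted p of 0.0476 by edgeR, and it lost the call in 16 of 29 fits that left out 1 library, with adjusted p up to 0.114. They include each fit without an anti-IL-10 mouse or a wild-type control, and those without Rag2 control 2, TCT mouse 5, any TRUC mouse, DNBS mouse 16, or anti-CD40 mouse 6 or 7. In DNBS the mice, at 1.19, 0.388 and 0.682 CPM, were also all below the controls, with a change of -1.19 (SE 0.426, adjusted p 0.0914), and without DNBS mouse 11 it was -1.72 at an adjusted p of 0.027. The TCT mice, at 2.1, 0.427 and 1.58 CPM, spread over a wider range than any other group and overlapped their controls.

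Dclk1 (ENSMUSG00000027797, chr3:55242364-55539068, plus strand), a microtubule-binding kinase used as the standard marker of tuft cells, had the most counts of the 9 genes and the most precise values. In anti-CD40 it had 5.54, 4.72 and 6.39 CPM beside 10.8, 11.3 and 10.7 CPM in the controls labelled Rag1-/-. The groups were far apart, and the log2 fold change was -0.98 (SE 0.187, adjusted p 0.000912 by edgeR), a level of 0.509 times that of the controls. Against the Rag2 controls, which had only 7.08, 6.73 and 8.69 CPM, the change was -0.43 (SE 0.189, adjusted p 0.0959), which did not pass. The control group thus decides that call. The untreated Rag2 controls were lower than the wild-type controls, at 12.9, 13.7 and 12.5 CPM, by 0.80 on the log2 scale (SE 0.183, adjusted p 0.00553), without overlap.

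In the anti-IL-10 mice Dclk1 had 7.34, 6.76, 7.46 and 10.8 CPM, each below every wild-type control, with a log2 fold change of -0.69 (SE 0.17, adjusted p 0.00169 by edgeR). In DSS it had 15.5, 26.4 and 24.9 CPM, each above every control, with a log2 fold change of 0.77 (SE 0.178, adjusted p 0.0019), or 1.71-fold. The DNBS mice, at 11.4, 10 and 9.81 CPM, were below the controls by 0.32 on the log2 scale without passing the test (SE 0.18, adjusted p 0.274). TRUC differed from the Rag2 controls by 0.12 (SE 0.174) and TCT from the labelled Rag1 controls by -0.11 (SE 0.182), with overlap.

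From high to low, the group means of Dclk1 were 22.2 CPM in DSS, 13 in the wild-type controls, 10.9 in the labelled Rag1 controls, 10.4 in DNBS, 10.2 in TCT, 8.14 in TRUC, 8.08 in anti-IL-10, 7.5 in the Rag2 controls and 5.55 in anti-CD40. Neighbours overlapped from the Rag1 controls to TCT and from TRUC to the Rag2 controls, and not elsewhere in this order.

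The level of Dclk1 moved with neuronal transcripts in DSS and anti-IL-10 and not in TRUC. Of these transcripts Prph and Tubb3 were the most abundant. In DSS 4 of the 6 neuron genes (Elavl3, Elavl4, Uchl1, Prph and Tubb3 among them) rose and 0 fell, where 17.7% and 16.3% of all genes did. Their summed level was 72.1 to 163 CPM beside 51.7 to 61.8 in the controls. In anti-IL-10 5 of 6 fell, where 26.1% of all genes did, to 16.8 to 37.6 CPM. In TRUC 5 of 6 also fell, where 23.4% of all genes did, while Dclk1 did not pass. The neuron sum there was 14.2 to 29.6 CPM beside 47.7 to 49 in the Rag2 controls. In anti-CD40 1 of 6 fell, where 10.7% of all genes did, with 24 to 66 CPM beside 54.2 to 63.2. Over the 29 libraries, Pearson's r of Dclk1 with that sum on the log scale was 0.731, and 0.574 after each group's mean was subtracted, as a description of libraries that share a scaling. It was 0.669 and 0.486 for Pou2f3, 0.602 and 0.077 for Trpm5, 0.513 and 0.296 for Sh2d6, 0.348 within groups for Alox5ap, -0.145 and 0.462 for Avil, and 0.048 and -0.249 for Rgs13, so that a relation of this kind was not limited to Dclk1. With the sum of the 10 epithelial genes, r was -0.713 for Dclk1, and 0.19 after subtraction of group means. The neurons' part in the changes of Dclk1 and the other members was not tested. Of 5 smooth muscle genes, 4 fell in anti-IL-10 and 2 in TRUC, beside 26.1% and 23.4% of all genes. In DSS and anti-CD40 edgeR called 0 of these muscle genes.

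**Figure D3:**
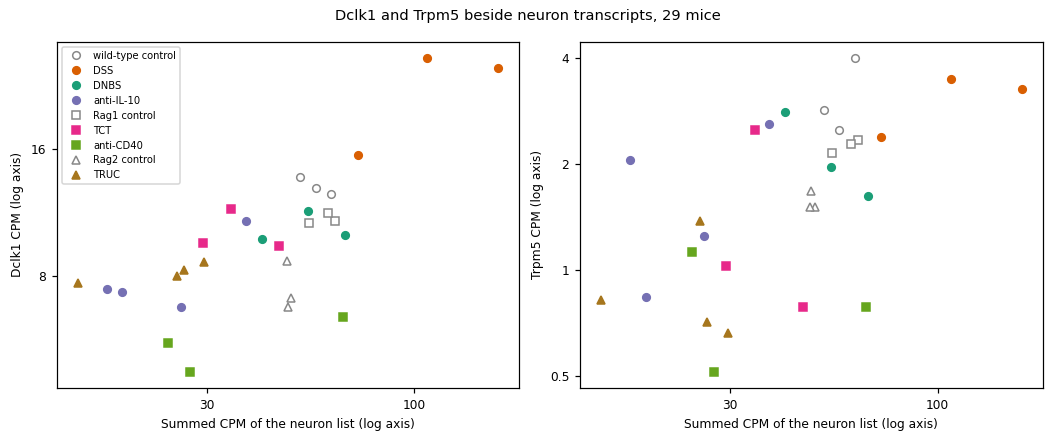
CPM of Dclk1 and of Trpm5 (y axes, log) against the summed CPM of 6 neuron genes (x axes, log) in 29 libraries. Open symbols are controls and filled symbols are colitis models. The 3 DSS mice lie highest on both axes in the panel of Dclk1, and the 3 anti-CD40 mice lie lowest on its y axis, at 4.72 to 6.39 CPM.

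Dclk1, Trpm5, Sh2d6 and Rgs13 are the 4 members called lower by edgeR in anti-CD40 against the labelled Rag1 controls. The sequence around their start sites is shown for that reason. The choice depends on the test and the control, as 2 members were called lower against the Rag2 controls and 2 by DESeq2. Pou2f3 was also below every labelled Rag1 control (-1.83 in log2) without passing. Whether the 4 share a regulator was not tested. RefSeq's table for GRCm38.p6 matched 6 of the 9 members, and Dclk1 has 2 start sites in it. Counts per gene cannot say which of the 2 was used, and the downstream one heads a shorter transcript. Each window holds 200 bases before the start site in lower case and the first 30 transcribed bases in capitals, 5′ to 3′ on the gene's strand.
Dclk1 upstream start, chr3:55242164-55242393, plus strand: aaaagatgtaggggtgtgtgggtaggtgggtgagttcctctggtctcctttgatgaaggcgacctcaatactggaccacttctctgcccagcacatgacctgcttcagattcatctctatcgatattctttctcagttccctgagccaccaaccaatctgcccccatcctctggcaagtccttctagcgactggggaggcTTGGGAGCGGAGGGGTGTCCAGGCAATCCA
Dclk1 downstream start, chr3:55461528-55461757, plus strand: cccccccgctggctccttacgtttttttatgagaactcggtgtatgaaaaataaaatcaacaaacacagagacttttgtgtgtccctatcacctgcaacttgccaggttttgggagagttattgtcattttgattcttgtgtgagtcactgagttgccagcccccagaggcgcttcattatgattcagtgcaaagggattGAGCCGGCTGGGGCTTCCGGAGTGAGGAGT
Trpm5, chr7:143094613-143094842, minus strand: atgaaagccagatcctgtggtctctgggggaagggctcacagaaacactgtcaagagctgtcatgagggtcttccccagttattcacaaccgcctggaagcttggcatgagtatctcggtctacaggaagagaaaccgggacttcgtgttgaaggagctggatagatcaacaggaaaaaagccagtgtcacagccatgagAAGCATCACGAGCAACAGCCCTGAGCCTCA
Sh2d6, chr6:72520007-72520236, minus strand: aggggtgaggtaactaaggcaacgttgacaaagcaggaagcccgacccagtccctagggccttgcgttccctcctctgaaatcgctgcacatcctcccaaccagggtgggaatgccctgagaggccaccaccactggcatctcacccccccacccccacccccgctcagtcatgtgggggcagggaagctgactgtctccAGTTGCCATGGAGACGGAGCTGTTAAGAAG
Rgs13, chr1:144177343-144177572, minus strand: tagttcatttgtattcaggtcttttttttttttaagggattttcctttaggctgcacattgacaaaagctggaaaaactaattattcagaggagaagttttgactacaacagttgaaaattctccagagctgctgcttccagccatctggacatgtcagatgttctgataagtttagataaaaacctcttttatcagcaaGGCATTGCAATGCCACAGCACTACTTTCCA
The octamer bound by POU factors, ATGCAAAT, was searched on both strands from 250 bases before to 50 after the start. It was in 0 of the 7 windows of the members and in 1.74% of the 32851 windows of all genes (570). The looser ATGCNAAT, which includes the first, was in 0 of 7 and in 3.15% (1035). These letters being absent from a window says nothing about what binds elsewhere.

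Avil (ENSMUSG00000025432, chr10:127000709-127020994, plus strand), which encodes the actin-bundling protein advillin of the tuft cell's apical bundle, rose in 3 models. The TRUC mice had 9.88, 13.9, 7.88 and 9.69 CPM and the Rag2 controls 4.43, 2.91 and 2.64 CPM. Every TRUC mouse was above every control, with a log2 fold change of 1.64 (SE 0.344, adjusted p 0.000551 by edgeR), or 3.11-fold. The TCT mice had 6.03, 8.8 and 7.78 CPM and the controls labelled Rag1-/- 3.16, 3.54 and 3.53 CPM, again without overlap, at 1.14 (SE 0.359, adjusted p 0.0182). That call was lost without TCT mouse 3 (1.03, adjusted p 0.0647) or control 2 (1.10, adjusted p 0.0562), and against the wild-type mice the change was 0.94 (SE 0.354, adjusted p 0.0463).

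In DSS the Avil values were 4.22, 6.09 and 12.5 CPM beside 3.12, 4.13 and 4.51 CPM. The lowest DSS mouse overlapped the controls, and the log2 fold change was 0.94 (SE 0.353, adjusted p 0.0411 by edgeR). It rests on DSS mouse 8: without it the change was 0.39 at an adjusted p of 0.436. The call was also lost without wild-type control 1 (0.81, adjusted p 0.143), 2 (0.98, adjusted p 0.0813) or 4 (1.05, adjusted p 0.0594). In anti-IL-10 the change was 0.61 (SE 0.337, adjusted p 0.13) and, with library size set to epithelial transcripts, -0.18, in DNBS 0.09 (SE 0.359) and in anti-CD40 -0.03 (SE 0.369), none of which passed.

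Alox5ap (ENSMUSG00000060063, chr5:149264767-149288153, plus strand) encodes the 5-lipoxygenase activating protein, needed for leukotriene synthesis. In DSS it had 4.66, 5.61 and 17.1 CPM beside 1.6, 0.932 and 1.07 CPM in the wild-type controls. All DSS mice were above all controls, with a log2 fold change of 2.91 (SE 0.421, adjusted p 2.4e-05 by edgeR), or 7.54-fold. Without DSS mouse 8, the highest, the change was 2.09 and still passed. In TCT it had 3.32, 1.62 and 2.59 CPM beside 0.73, 0.884 and 0.43 CPM, at 1.85 (SE 0.462, adjusted p 0.00358), and against the wild-type mice the change was 1.06 (SE 0.431, adjusted p 0.0634), which did not pass. In TRUC it had 1.77, 2.49, 2.57 and 1.38 CPM beside 0.531, 0.765 and 0.906 CPM, without overlap, at 1.45 (SE 0.44, adjusted p 0.00956). The DNBS mice, at 1.85, 2.56 and 1.79 CPM, were all above the controls, with a change of 0.78 (SE 0.431, adjusted p 0.266) that did not pass. In anti-IL-10 (0.35, SE 0.421) and anti-CD40 (0.06, SE 0.516) the groups overlapped.

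Over all groups the mean of Alox5ap was 9.13 CPM in DSS (SD 6.93), 2.51 in TCT, 2.07 in DNBS, 2.05 in TRUC, 1.54 in anti-IL-10 and 1.2 in the wild-type controls, and then 0.734, 0.719 and 0.681 in the Rag2 controls, anti-CD40 and the labelled Rag1 controls. DSS stood apart from the next group, and so did the wild-type controls from the Rag2 controls, while the other neighbours in this order overlapped.

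Avil and Alox5ap moved with neutrophil transcripts in some models and not in others, and within groups only Alox5ap also went with macrophage transcripts. All 6 neutrophil genes (S100a9 and S100a8, the most abundant, and Cxcr2, Csf3r, Retnlg and Mmp8) rose in each model but anti-CD40, where 4 of 6 did. Their summed level was 0.973 to 2.11 CPM over all control libraries, 757 to 1260 in TRUC, 190 to 1820 in DSS, 133 to 342 in anti-IL-10, 112 to 264 in TCT, 32.9 to 191 in anti-CD40 and 22.2 to 108 in DNBS. DSS mouse 8 had the 1820, and it was also the highest DSS mouse for Avil and Alox5ap. Neutrophil genes rose in anti-IL-10, DNBS and anti-CD40 too. There neither Avil (0.61, 0.09 and -0.03 in log2) nor Alox5ap (0.35, 0.78 and 0.06) was called. The 6 macrophage genes, led by Lyz2 and C1qa, rose in 6 of 6 in TRUC, DSS and TCT, in 3 of 6 in anti-IL-10 and anti-CD40, and in 1 of 6 in DNBS. Beside both lists, the share of all genes called higher was 22.4% in TRUC, 17.7% in DSS and 16.1% in TCT. It was 27.2% in anti-IL-10, 10.9% in anti-CD40 and 3.95% in DNBS. After each group's mean was subtracted, Pearson's r over the 29 libraries with the neutrophil sum was 0.716 for Avil and 0.71 for Alox5ap, and with the macrophage sum 0.004 for Avil and 0.655 for Alox5ap. For Trpm5, Sh2d6 and Rgs13 it was -0.126, -0.163 and -0.189 with the neutrophil sum. These are descriptions across libraries that share a scaling, and the leukocytes' part in the changes was not tested.

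**Figure D4:**
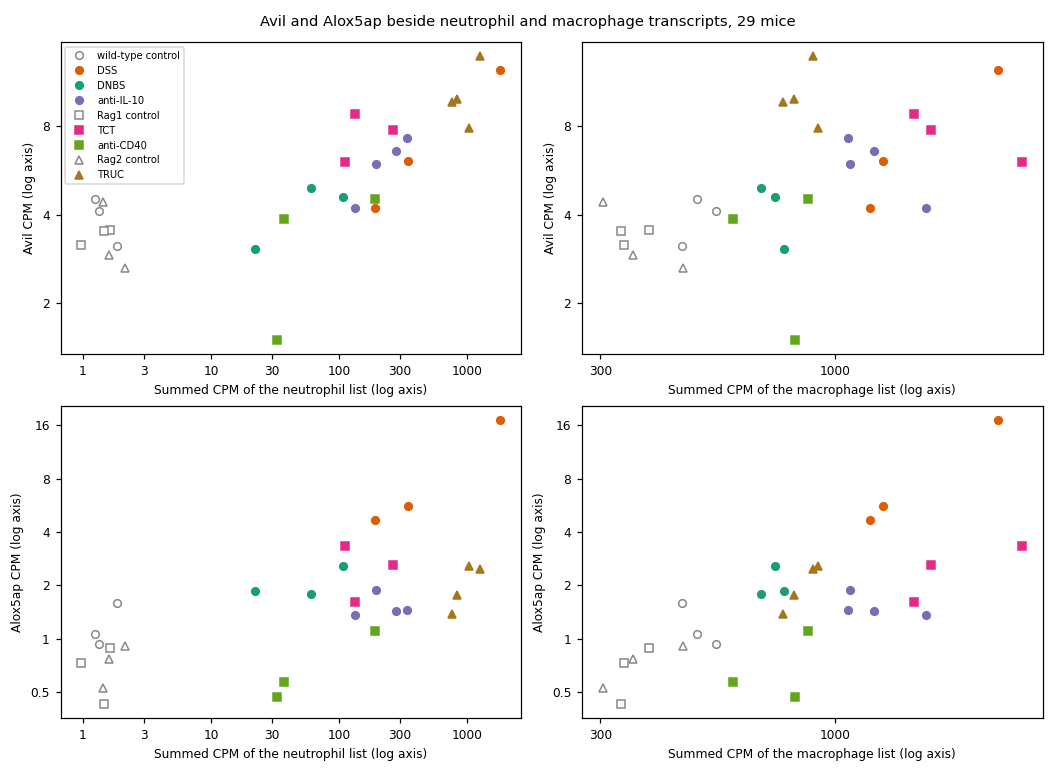
CPM of Avil (top) and Alox5ap (bottom) on log y axes against the summed CPM of 6 neutrophil genes (left) and 6 macrophage genes (right) on log x axes, in 29 libraries. Open symbols are controls and filled symbols are colitis models. The controls lie at 0.973 to 2.11 CPM of neutrophil genes, and DSS mouse 8, at 1820 CPM, is the highest library for Alox5ap and lies below 1 TRUC mouse for Avil.

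The genes whose pattern was most like a member's within groups also differed between members. The 5 most like Alox5ap, by Pearson's r of log2 CPM over 29 libraries after subtraction of group means, were Ifitm6 (0.86), Fxyd5 (0.859), Fcer1g (0.859), Clec4d (0.854) and G0s2 (0.854), at 0.805 to 0.923 without that subtraction. Among those of Trpm5 were Gm18009 (0.689), Lonp2 (0.672), Bmx (0.659) and Gm26534 (0.654), at -0.157 to 0.77 without it, among which Bmx, a Tec family kinase, is itself on the list of tuft cell genes. Dclk1 had Pcnx, Rgs2, Iapp and 6030445D17Rik (0.735 to 0.778), Avil had Dhx38, Ehbp1l1, Nxn and Rnf39 (0.765 to 0.82), and Pou2f3 had Gm43719, Afmid, Mapk1ip1 and Zfp688 (0.69 to 0.766). For Sh2d6 they were Mcpt1, E130307A14Rik, Aftph, Gm39132 and Tppp3 (0.654 to 0.725), and for Rgs13 AW554918, A730020E08Rik, Cd8b1, Rabggta and Bard1 (0.676 to 0.691). Among the 21 pairs of tested members themselves the median r was 0.447, and 0.167 after subtraction of group means. The highest of the latter was 0.632, for Dclk1 with Pou2f3. All of these are descriptions across libraries that share a scaling, drawn for the likeness lists from 18616 genes.

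The other genes of the taste-type chain were called in both directions. Of 9, 7 were tested, and Gng13 and Sucnr1 were under the filter at 0 to 3 counts per library. Higher and lower calls were 2 and 1 in TRUC, 2 and 0 in DSS, 0 and 0 in DNBS, 3 and 1 in anti-IL-10, 2 and 1 in TCT and 0 and 0 in anti-CD40. Of all genes, 22.4% and 23.4% were called higher and lower in TRUC, 17.7% and 16.3% in DSS, and 3.95% and 2.21% in DNBS. These shares were 27.2% and 26.1% in anti-IL-10, 16.1% and 14% in TCT, and 10.9% and 10.7% in anti-CD40. Whether any list differs from them was not tested. The risers of this chain were mostly Plcg2 and Plcb2, phospholipases C that leukocytes also make. Plcg2 was 12.9 CPM in TRUC beside 5.81 (1.15 in log2, adjusted p 0.00632 by edgeR, and 0.063 with library size set to epithelial transcripts), and Plcb2 was 10.8 CPM in DSS beside 4.48 (1.27, adjusted p 0.00154). The taste receptor gene Tas1r3 fell in TCT from 2.66 to 1.22 CPM (-1.13, adjusted p 0.0119), but the change was -0.36 against the wild-type mice (adjusted p 0.443) and -0.83 without TCT mouse 3 (adjusted p 0.0819). Ffar3, a receptor for short-chain fatty acids, fell from 0.626 to 0.167 CPM in TRUC (-1.86, adjusted p 0.00329, and 0.0515 by DESeq2) and from 1.09 to 0.263 CPM in anti-IL-10 (-2.02, adjusted p 0.000479).

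Among 5 further genes of eicosanoid synthesis, calls higher and lower were 0 and 1 in TRUC, 2 and 0 in DSS, 0 and 1 in DNBS, 0 and 2 in anti-IL-10, 0 and 0 in TCT and 0 and 1 in anti-CD40. The shares of all genes beside these counts are those given for the taste-type chain. Hpgds, the haematopoietic prostaglandin D synthase, was 19.5 CPM in the wild-type controls (SD 0.576). It was 9.15 CPM in DNBS (-1.09, adjusted p 0.0194 by edgeR), 10.4 CPM in anti-IL-10 (-0.90, adjusted p 0.00417) and 4.77 CPM in anti-CD40 beside 8.8 in its controls (-0.88, adjusted p 0.0281). The DNBS call was lost without wild-type control 1 or 2 or DNBS mouse 14 or 16 (adjusted p 0.0643 to 0.113), and the anti-CD40 call without labelled Rag1 control 2 or 3 or any 1 anti-CD40 mouse (0.0545 to 0.0982). Alox5, the partner of Alox5ap, rose in DSS from 4.05 to 9.41 CPM (1.21, adjusted p 0.0155) and fell in anti-IL-10 to 1.84 CPM (-1.15, adjusted p 0.0135). Without DSS mouse 8 its change in DSS was 0.59 (adjusted p 0.244) and without wild-type control 4 it was 1.09 (0.0642), and without wild-type control 1 its adjusted p in anti-IL-10 was 0.0506. Ptgs1, cyclooxygenase 1, was at the edge of the threshold, with 0.67 in DSS (adjusted p 0.0493) and -0.63 in TRUC (adjusted p 0.0375), and lost the call in 21 and 5 of 29 fits that left out 1 library (adjusted p up to 0.12 and 0.122). Ltc4s, the leukotriene C4 synthase, was between 0.158 and 0.539 CPM in the mean of every group and was called nowhere.

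Of 16 other tuft cell genes, all tested, calls higher and lower were 5 and 4 in TRUC, 7 and 3 in DSS, 1 and 0 in DNBS, 9 and 1 in anti-IL-10, 8 and 1 in TCT and 3 and 1 in anti-CD40. They too stand beside the shares of all genes given for the taste-type chain. Among the genes of this list called most often were Cd300lf, an inhibitory receptor, Fyb, an adaptor, and Vav1, a guanine nucleotide exchange factor, all of which leukocytes make in quantity. Cd300lf rose in each of the 6 models, for instance from 0.494 to 21.3 CPM in TRUC (adjusted p 9.8e-06 by edgeR), though the call in DNBS was lost in 14 of 29 fits that left out 1 library (adjusted p up to 0.187). Fyb rose in 5 models, up to 34.4 CPM in TCT beside 3.68 (adjusted p 1.04e-07). Vav1 rose in 4, to 39.7 CPM in DSS beside 15.3 (adjusted p 0.000478). Fyb in anti-CD40 lost the call against the Rag2 controls (adjusted p 0.0848) and without anti-CD40 mouse 7 or labelled Rag1 control 3 or 4 (0.0531 to 0.0856). Under scaling to epithelial transcripts Fyb lost its calls in anti-CD40 (adjusted p 0.126 by edgeR) and anti-IL-10 (0.233). Vav1 then lost those in TRUC (0.101) and anti-IL-10 (0.416), and Cd300lf that in DNBS (0.0693). With library size set to epithelial transcripts, the 28 tested genes of the 3 lists went from 4 lower to 11 in anti-IL-10, where the share of all genes called lower went from 26.1% to 62.7%, and from 6 to 10 in TRUC, where it went from 23.4% to 38.7%. Those called higher went from 12 to 1 and from 7 to 4, where the shares of all genes went from 27.2% to 7.35% and from 22.4% to 10.3%.

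**Figure D5:**
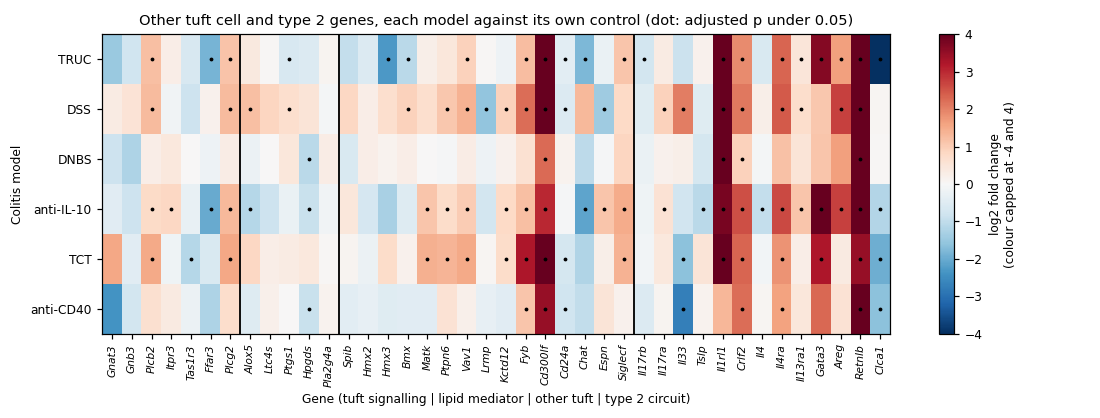
Log2 fold change (colour, capped at -4 and 4) of tested genes of 4 lists (x axis, lists separated by lines) in each model over its own control (y axis). Dots mark an adjusted p under 0.05. Red columns at Fyb, Cd300lf, Il1rl1, Crlf2, Il4ra and Retnlb stand beside mixed or pale columns elsewhere.

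Around IL-25, the receptors and epithelial targets of the type 2 circuit were measured more deeply than its cytokines. Of 16 genes 13 were tested, and calls higher and lower were 7 and 2 in TRUC, 8 and 0 in DSS, 3 and 0 in DNBS, 8 and 3 in anti-IL-10, 5 and 2 in TCT and 3 and 2 in anti-CD40. Here again the shares of all genes are those given for the taste-type chain. Il17rb, the IL-25 receptor subunit, was 3.88 CPM in the Rag2 controls (SD 1.09) and 2.32 in TRUC (SD 0.716), a change of -0.73 (adjusted p 0.0412 by edgeR), and passed in no other model. That call was lost with no filter (0.0926), with DESeq2 (0.0575), and without Rag2 control 4 (-0.47, adjusted p 0.25) or TRUC mouse 3 or 4 (0.117 and 0.115). Its partner Il17ra rose in DSS (0.92, adjusted p 0.00127) and in anti-IL-10 (0.57, adjusted p 0.0153), where it was -0.22 with library size set to epithelial transcripts and had an adjusted p of 0.0649 without wild-type control 1. Il13 had 0 to 4 counts per library and was not tested. Il4 was 0.563 CPM in anti-IL-10 beside 1.1 (-0.97, adjusted p 0.0133), a call lost with no filter (0.0534), with DESeq2 (0.121) and without wild-type control 2 (0.0887). Il4ra, the receptor chain shared by IL-4 and IL-13, rose in 5 models, for instance from 25.4 to 128 CPM in TRUC (2.33, adjusted p 3.45e-05). Il13ra1 rose in TRUC (0.48, adjusted p 0.0453), DSS (0.70, adjusted p 0.0111) and anti-IL-10 (1.12, adjusted p 7.1e-05). With library size set to epithelial transcripts its change was 0.13 in TRUC (adjusted p 0.548) and 0.29 in anti-IL-10 (0.129). The TRUC call was also lost in 15 of 29 fits that left out 1 library (adjusted p up to 0.129), and that in DSS without DSS mouse 8 (0.45, adjusted p 0.125).

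The alarmin Il33 rose in DSS from 13 CPM (SD 2.23) to 53.9 (SD 46.2), at 2.05 in log2 (adjusted p 0.00282 by edgeR), but 1.09 (adjusted p 0.0798) without DSS mouse 8. It fell in TCT from 16.6 CPM to 5.37 (-1.63, adjusted p 0.0196) and in anti-CD40 to 2.5 (-2.73, adjusted p 0.00146). The TCT change was -1.28 against the wild-type mice (adjusted p 0.0633), and the call was also lost without labelled Rag1 control 3 or TCT mouse 1 or 3 (0.0748 to 0.0789). Tslp, the other epithelial alarmin on the list, was 0.628 CPM in anti-IL-10 beside 1.37 (-1.08, adjusted p 0.0265). The call was lost with no filter (0.0556), with edgeR on the 2 groups (0.064), with DESeq2 (0.105), and without wild-type control 1 or 2 or anti-IL-10 mouse 2, 3 or 4 (0.0523 to 0.103). Retnlb, a goblet cell product known to follow IL-13, was 0 to 1 counts in the wild-type controls and 52 to 630 in DNBS, 132 to 469 in DSS and 762 to 8360 in anti-IL-10. It was also higher in TRUC (140 CPM beside 1.35), TCT (37.9 beside 3.43) and anti-CD40 (71.5 beside 3.43), with adjusted p between 2.63e-06 and 0.00757 over the 6 models. The most abundant gene of the list was Clca1, at a mean of 2080 CPM. The list summed to 839 to 976 CPM in TRUC beside 3680 to 4750 in the Rag2 controls. It was 946 to 2450 in TCT and 1770 to 2180 in anti-CD40 beside 4130 to 5520 in the labelled Rag1 controls. DSS had 2800 to 3510, DNBS 2190 to 3180 and anti-IL-10 1110 to 2550 beside 2220 to 2780 in the wild-type controls.

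Some exon sequence of the members is shared with neighbours. Trpm5 overlaps Tssc4 on the opposite strand by 220 bases, Avil overlaps Tsfm by 165 and Alox5ap overlaps Gm19719 by 189, and of their 50-base exon windows 2.57%, 3.48% and 6.8% occur in another gene. For Dclk1 the share was 0.271%, and it was 0 for Il25, Gfi1b, Sh2d6 and Rgs13. Whether the counting used the strand is not stated, so reads in these overlaps cannot be assigned with certainty.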

How the data were processed

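The deposited table held the authors' raw counts, whole numbers per gene and library with no normalization. The submitters' processing notes name Trimmomatic, HISAT2 and HTSeq. Their versions and the strand setting are not given in the sources used here. The 92 spike-in rows summed to 0 and were not used. Symbols were found for 54409 of 54532 identifiers, and positions are from GENCODE (GRCm38).

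The analysis used edgeR 4.0.16 (R 4.3.3). A gene was tested if its mean over the 29 libraries reached 3 counts. After TMM scaling, 1 quasi-likelihood model with 9 groups and no covariate was fitted, leaving 20 residual degrees of freedom. SEs are the absolute log2 fold change over the square root of F. P-values were adjusted by Benjamini-Hochberg over 18616 genes, with a threshold of 0.05. The scripts were tested on simulated counts. Libraries of a group differed by 3.42 times the counting noise or more over 33 pairs (chi-square over its degrees of freedom), so none was treated as a repeat.

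The members, gene lists and alternatives were chosen with earlier results of these data known. All 9 members are named. From the other lists the text names, apart from some genes not reported here, the 4 genes called in the most models for each tuft cell list, 9 set genes of the type 2 circuit, the 2 most abundant genes of a cell type list, and the 5 genes most like each member. Bmx, Gng13, Sucnr1, Il1rl1, Crlf2 and Clca1 were named after their values were seen. The alternatives were RLE size factors, scaling to 10 epithelial genes, no filter, filterByExpr, DESeq2 1.42.0 and edgeR on 2 groups, a replicate block, other controls, a threshold of 0.01 and leaving out each library.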

Additional observations from a re-analysis of the deposited data

Results flagged for a closer look

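The change against controls differed between the 6 models for 5 members of 7 tested by the quasi-likelihood F test of edgeR, beside 60.5% of all genes. The adjusted p was 1.2e-06 for Dclk1, which rose in DSS and fell in anti-IL-10 and anti-CD40. It was 1.79e-05 for Alox5ap and 0.00974 for Avil, which rose in DSS, TRUC and TCT. It was 0.00625 for Sh2d6 and 0.00683 for Rgs13, both lowest in anti-CD40.

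In the anti-IL-10 group, Alox5ap was 1.88 CPM in mouse 4 and 1.37 to 1.46 CPM in the other 3. The gap was 0.838 of the group's range, above the critical value for 4 mice. Of 14 such sets of a member in a group of 4 this was the only one, and chance gives about 1 in 20.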

How the results depend on the processing

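With RLE size factors every member kept its call in all 7 comparisons. No called change of a member turned its direction under any alternative. Scaling to epithelial transcripts moved the median log2 fold change of all genes to -0.38 in TRUC, 0.34 in DSS, -0.19 in DNBS, -0.80 in anti-IL-10, -0.27 in TCT, -0.38 in anti-CD40 and -0.28 in the Rag2 controls. The share of calls that were higher then went from 48.8% to 21.1% in TRUC, 52.1% to 83.3% in DSS, 64.1% to 37.6% in DNBS, 51% to 10.5% in anti-IL-10, 53.4% to 28.1% in TCT, 50.5% to 12.9% in anti-CD40 and 40.1% to 16.1% in the Rag2 controls. Under it the members called lower were 2 in TRUC, 4 in anti-IL-10, 4 in anti-CD40 and 2 in the Rag2 controls, beside 38.7%, 62.7%, 26.1% and 8.55% of all genes, and those higher in TCT were 1, beside 9.48%.

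Members called lower in TRUC (1) were 0 at a threshold of 0.01, 0 with no filter, 0 with filterByExpr, which dropped Pou2f3, 2 with edgeR on the 2 groups and 0 with DESeq2. Those lower in anti-IL-10 (3) were 1 at 0.01, 1 with no filter and 1 with DESeq2. Those lower in anti-CD40 (4) were 1 at 0.01, 2 with DESeq2, which gave no adjusted p for Rgs13, and 2 against the Rag2 controls. Those higher in TCT (2) were 1 at 0.01 and 1 against the wild-type mice, where 1 was lower. Those lower in the Rag2 controls (1) were 2 with edgeR on the 2 groups and 2 with DESeq2. With each library left out in turn, members lower were 0 to 1 in TRUC, 0 to 1 in DNBS, 1 to 3 in anti-IL-10, 0 to 1 in TCT and 1 to 4 in anti-CD40, and members higher in TCT were 1 to 2. Without anti-CD40 mouse 7 only Dclk1 remained called in that model. For other named genes, Il17ra in anti-IL-10 was -0.22 under the epithelial scaling and Hpgds in TCT was -0.73 against the wild-type mice, both turned in direction. The cause of these moves was not tested except where the construction is named.

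The labels give replicate numbers that TRUC and anti-IL-10 share with their controls, but the deviations of same-numbered libraries were not correlated (-0.052 to 0.056), so the numbers were not taken as pairs. With the number as a replicate block, 0 members were lower in TRUC and 2 in anti-IL-10, where Dclk1 had an adjusted p of 0.0624. Among other named genes it lost the calls of Il17rb in TRUC (0.171) and of Plcb2 (0.22), Il4 (0.0991) and Tslp (0.108) in anti-IL-10.

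Depth limits Il25 and Gfi1b at 0 to 7 counts per library, Pou2f3 at 0 to 18, and Rgs13 in anti-CD40 at 1.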
